A study of Caenorhabditis elegans with 12 samples.

Results

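Superoxide dismutases, catalases and peroxiredoxins are the enzymes that take superoxide and hydrogen peroxide out of the cell. Superoxide dismutases turn superoxide into hydrogen peroxide, and catalases and peroxiredoxins then reduce the peroxide, the catalases mainly in peroxisomes and the cytosol and the peroxiredoxins through a reactive cysteine that thioredoxin restores. In *C. elegans* some of these genes, above all *sod-3*, are known targets of DAF-16, the transcription factor that is active when insulin/IGF signaling is low, and are widely used as readouts of that pathway. The genes were chosen by name: *sod-1*, *sod-2*, *sod-3*, *sod-4*, *sod-5*, *ctl-1*, *ctl-2*, *ctl-3*, *prdx-2* and *prdx-3*, which gave 10 of the 19089 genes of the expression table, and all 10 were measured and tested.

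RNA was sequenced from pools of whole CL2006 worms, which carry a human Aβ transgene driven in body wall muscle by the *unc-54* promoter. The study lists the strain with pRF4 beside the Aβ minigene, and every group shares both. The worms were grown at 20 °C on their RNAi bacteria for consecutive generations, received their treatment daily as adults and were harvested at day 6 of adulthood. ABPS worms were fed Aβ RNAi bacteria and treated with the 5MER peptide, AB0S worms were fed Aβ RNAi bacteria and given M9 buffer, EVPS worms were fed empty vector (EV) bacteria and treated with the peptide, and EV0S worms were fed EV bacteria and given buffer, with 3 repeats per group and 12 libraries in all. The genotype label reads "AB RNAi" for ABPS and AB0S and "WT" for EVPS and EV0S, although the strain label is CL2006 in all of them. The values are read counts per gene that the authors divided by DESeq2 size factors and corrected for the 3 repeats. They are called normalized values here, the sequencing depth behind them is unknown, and fold changes were fitted with limma on log2(value + 1), a scale that understates the change of genes with low values. A gene was called changed at a Benjamini-Hochberg adjusted p below 0.1 over all 19089 genes. In whole worms, less RNA per cell and fewer cells of a type cannot be told apart.

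Of the whole table, 1 library stood apart. In EV0S repeat 3 the normalized values summed to 24082771, against 28461451 and 29142841 in the other EV0S repeats and between 26197695 and 28841254 in the 9 libraries of the other groups. Its summed yolk protein genes (*vit-1* to *vit-6*) stood at 800057, against 1304262 and 1471525 in the other EV0S repeats, and it was the highest or the lowest of the 12 libraries for 18.9% and 22.1% of all genes. Counts of calls among the 10 genes and calls of the other genes named are given with and without it where the comparison uses it. Fold changes without it are given only in part. The markers of the labelled tissue were present in every library: of the 63 measured markers of intestine, body wall muscle, hypodermis, neurons, oocytes and sperm, 0 were at 0 in any library.

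All 10 genes are protein coding, and 6 of them lie on chromosome II of the WBcel235 assembly. The 3 catalase genes form a tandem array on the minus strand there, with *ctl-2* at 14299556 to 14302027, *ctl-1* at 14303568 to 14306260 and *ctl-3* at 14307798 to 14310779, separated by 1540 and 1537 bases. The catalase copies are close to each other in sequence, so reads that match more than 1 of them could be lost or assigned wrongly, and the split between them is uncertain. On the same chromosome lie *sod-1* (6972706 to 6973887, minus strand), *sod-5* (4417633 to 4419130, plus strand) and *prdx-2* (5378195 to 5379631, plus strand). Chromosome III holds *sod-4* (9496884 to 9500375, minus strand) and *prdx-3* (4407444 to 4408437, plus strand), chromosome I holds *sod-2* (8434550 to 8435807, plus strand) and chromosome X holds *sod-3* (17092753 to 17094306, plus strand). Exons of *sod-1*, *sod-2*, *sod-3*, *sod-4* and *ctl-2* overlap genes on the opposite strand by 85, 21, 89, 175 and 65 bases in all, and whether the authors counted by strand is not stated, so these 5 genes may hold some reads of their neighbours.

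The peroxiredoxin gene *prdx-2* was by far the most abundant of the 10 and *sod-5* the scarcest. Levels are compared between genes as normalized value per kb of exon. *prdx-2*, the main cytosolic peroxiredoxin, averaged 22005 per kb over the 12 libraries, higher than 99.3% of all genes. *sod-1*, the main cytosolic copper/zinc superoxide dismutase, averaged 5592 per kb, and *prdx-3*, the mitochondrial peroxiredoxin, 4373 per kb. *sod-2*, the main mitochondrial manganese superoxide dismutase, averaged 3340 per kb. These 4 genes were all above the 95th percentile of the table. The catalase *ctl-2*, the peroxisomal enzyme, averaged 912 per kb, against 185 per kb for *ctl-3* and 42.2 per kb for the cytosolic catalase *ctl-1*. *sod-4*, the extracellular and membrane-bound copper/zinc enzyme, averaged 284 per kb, *sod-3*, the second mitochondrial manganese enzyme, 74.2 per kb, and *sod-5*, the second cytosolic copper/zinc enzyme, 9.26 per kb, which is higher than 17.1% of all genes.

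**Figure D1:**
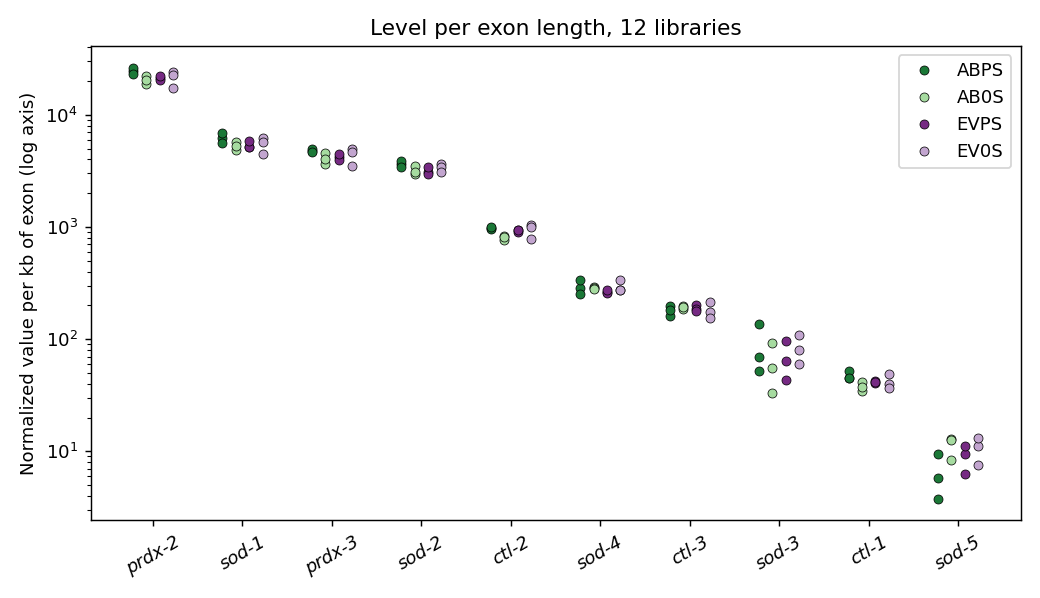
Normalized value per kb of exon (log axis) of the 10 genes in each of the 12 libraries, coloured by group, with the genes ordered by their mean. The mean is 22005 per kb for prdx-2 and 9.26 per kb for sod-5, and only neighbouring genes have ranges that overlap.

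The order of these levels was stable. Each gene was higher than the next one in the order in 12 of 12 libraries, with the exception of *sod-3* and *ctl-1*, where *sod-3* was higher in 11 of 12. The ranges over the libraries overlapped between *sod-1* and *prdx-3*, between *prdx-3* and *sod-2*, and between *sod-3* and *ctl-1*, and not between the other neighbours. Within the families, *sod-1* held on average 60.1% of the superoxide dismutase level per kb and *sod-2* 35.97%, while *sod-4* held 3.08%, *sod-3* 0.787% and *sod-5* 0.103%. *ctl-2* held 80.0% of the catalase level, *ctl-3* 16.3% and *ctl-1* 3.70%, with the uncertainty of the tandem copies given above. *prdx-2* held 83.4% of the level of the 2 peroxiredoxins, and this share lay between 83.03% and 84.08% in every library.

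The genes differed in how much they varied over the libraries. The coefficient of variation over the 12 libraries was between 9.05% and 12.1% for 8 of the genes, 39.8% for *sod-3* and 32.8% for *sod-5*. The highest library was 4.09 times the lowest for *sod-3* and 3.48 times for *sod-5*, against 1.32 to 1.54 times for the other 8. ABPS repeat 2 was the highest library for 7 of the 10 genes, against 12.3% of all genes. It was the lowest for 1 of the 10, *sod-5*, against 6.93% of all genes. EV0S repeat 3 was the lowest library for 4 genes, *prdx-2*, *prdx-3*, *sod-1* and *ctl-3*, and the highest for *sod-5*.

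A block of 5 genes moved together from library to library, namely *prdx-2*, *prdx-3*, *sod-1*, *sod-2* and *ctl-1*, and *ctl-2* followed them more loosely. In the plot of deviations the ABPS libraries of these 6 genes are above and the AB0S libraries mostly below the mean. Pearson's r between pairs of the 5 was 0.84 to 0.98 (Spearman's rho 0.74 to 0.99, and r 0.70 to 0.98 without the 2 libraries farthest from the median). For *ctl-2* r was 0.53 to *sod-2*, 0.62 to *sod-1*, 0.67 to *ctl-1* and 0.71 to both peroxiredoxin genes (rho 0.53 to 0.75, and r 0.47 to 0.86 without the farthest 2). Over the 12 libraries, on the log2 scale, Pearson's r between *prdx-2* and *prdx-3* was 0.98 (Spearman's rho 0.99, and r 0.98 without the 2 libraries farthest from the median of *prdx-2*). Between *prdx-2* and *sod-1* it was 0.97 (rho 0.93, and r 0.94 without the farthest 2). The ratio of *prdx-2* to *prdx-3* stayed between 4.89 and 5.28, and that of *prdx-2* to *sod-1* between 3.78 and 4.13. These values are a description over libraries that share their normalization, and the same genes also followed the total of the library: for *prdx-2* against the sum of all normalized values r was 0.88 (rho 0.86, and r 0.73 without the farthest 2).

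*sod-4* and *ctl-3* did not share this pattern, with r to *prdx-2* of -0.07 (rho 0.00, and r -0.00 without the farthest 2) and 0.32 (rho 0.14, and r 0.24). *sod-5* ran the other way, with r of -0.88 to *sod-1* (rho -0.91, and r -0.81), from values of only 2.66 to 9.27. The relation of *sod-3* to *sod-2*, the other mitochondrial enzyme, rested on few libraries, since r of 0.62 (rho 0.68) came to 0.27 without the farthest 2. The 3 genes most like *ctl-2*, the member with the smallest p in any comparison, were Y48A6B.9 (r 0.96, rho 0.95, and 0.96 without the farthest 2), F46H5.7 (0.96, 0.93 and 0.93) and *zipt-13* (0.96, 0.92 and 0.97), among the 15516 genes whose mean over the 12 libraries was 10 or more.

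**Figure D2:**
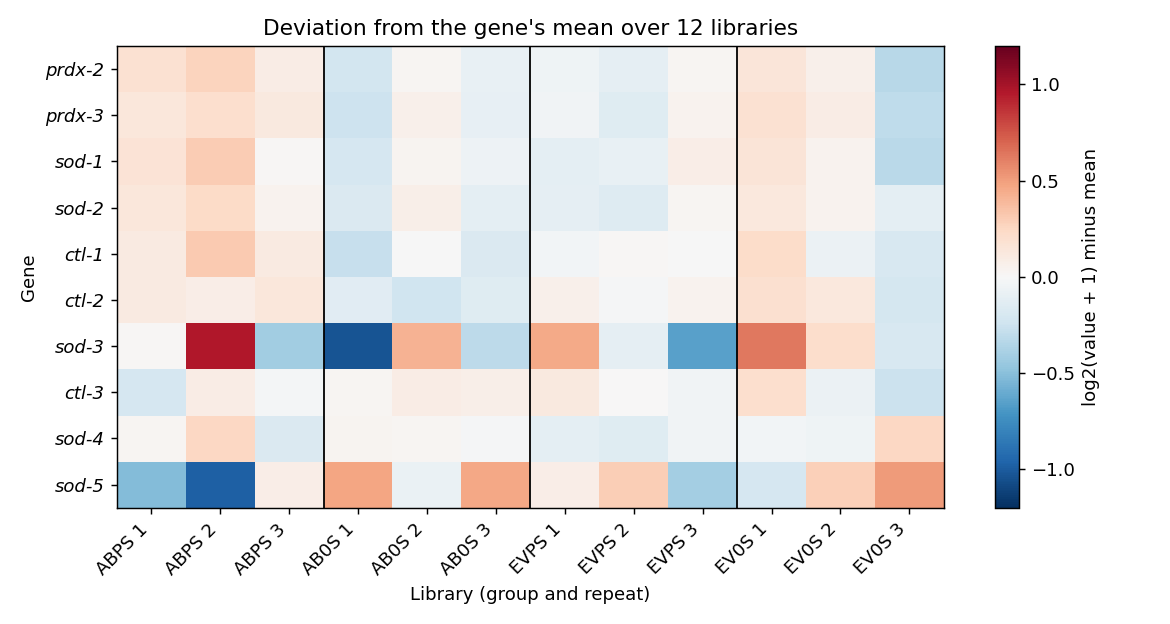
Deviation of each gene from its own mean over the 12 libraries, in log2(value + 1), with libraries in columns by group and repeat (red above the mean, blue below). The upper 6 genes have the ABPS libraries above the mean and EV0S repeat 3 below it, and sod-3 and sod-5 vary most.

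The peptide was compared with buffer in worms on Aβ RNAi bacteria, which asks whether it affects these enzymes when the Aβ challenge is low. The means of 8 of the 10 genes were higher in ABPS than in AB0S worms, but 0 of the 10 passed limma's threshold (smallest adjusted p 0.279), and of all genes 0% did. At an unadjusted limma p below 0.05 there were 3 of the 10, *ctl-2*, *prdx-2* and *sod-2*, against 15.9% of all genes. The log2 fold change was above 0 for 8 of the 10 with a median of 0.24, against a median of -0.02 over all genes. In 4 of the 10, *ctl-1*, *ctl-2*, *prdx-2* and *prdx-3*, every ABPS library was higher than every AB0S library, against 14.9% of all genes, and in 0 of the 10 was every ABPS library lower, against 14.5% of all genes.

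*ctl-2* stood at 1575, 1541 and 1607 in ABPS repeats 1 to 3, against 1328, 1242 and 1324 in AB0S. The 2 groups did not overlap, and ABPS was higher in 3 of 3 repeats. The fitted log2 fold change of this peroxisomal catalase was 0.28 (SE 0.0886, 95% interval 0.08 to 0.48, fold 1.21, limma adjusted p 0.279). The cytosolic *ctl-1* had 70.1, 81.0 and 70.4 in ABPS, against 53.5, 65.0 and 57.7 in AB0S, also without overlap, at 0.33 (SE 0.163, limma adjusted p 0.348). The third copy of the array had a fold change below 0: *ctl-3* had 261, 321 and 295 in ABPS, against 305, 321 and 316 in AB0S, at -0.11 (SE 0.122, limma adjusted p 0.677). Their ratio therefore separated these 2 groups, with *ctl-2* at 4.87 to 6.12 times *ctl-3* in ABPS libraries, against 3.92 to 4.41 times in AB0S libraries. In EVPS libraries it was 4.72 to 5.21 and in EV0S libraries 4.88 to 5.67. Both of these ranges overlapped that of ABPS and lay above that of AB0S. The ratio is given without a test because it was formed after the values were seen, and the split between the copies is uncertain.

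*prdx-2* stood at 18757, 19951 and 17529 in ABPS, against 14205, 16795 and 15570 in AB0S. Every ABPS library was above every AB0S library, and the log2 fold change was 0.27 (SE 0.113, 95% interval 0.02 to 0.53, limma adjusted p 0.296). The mitochondrial *prdx-3* had 3689, 3847 and 3620 in ABPS, against 2826, 3496 and 3126 in AB0S, again without overlap, at 0.24 (SE 0.119, limma adjusted p 0.340). The size for *prdx-2* depended on the scaling: after quantile normalization its log2 fold change was 0.09, while that of *prdx-3* was 0.22. Why the size for *prdx-2* was smaller under that scaling was not tested.

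The main superoxide dismutases were close to these sizes. *sod-1* had 4473, 4930 and 4038 in ABPS, against 3485, 4105 and 3831 in AB0S. The groups overlapped by 1 library, ABPS repeat 3, which lay below AB0S repeat 2, and the log2 fold change was 0.23 (SE 0.118, limma adjusted p 0.355). *sod-2* had 2938, 3124 and 2749 in ABPS, against 2370, 2808 and 2456 in AB0S, at 0.21 (SE 0.0870, limma adjusted p 0.297), with an overlap of the same kind.

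The other 3 superoxide dismutases were less regular. *sod-3* had 61.7, 119.8 and 45.5 in ABPS, against 29.3, 81.8 and 48.9 in AB0S. The groups overlapped and the pair of repeat 3 went the other way, so the largest of the positive fold changes, 0.50, had an SE of 0.381 (95% interval -0.35 to 1.35, limma adjusted p 0.526). *sod-5* had 4.04, 2.66 and 6.62 in ABPS, against 9.02, 5.85 and 8.98 in AB0S. It was lower in ABPS in 3 of 3 repeats, with 1 overlap between the groups, at -0.76 (SE 0.373, 95% interval -1.60 to 0.07, limma adjusted p 0.341). *sod-4* had 375, 439 and 327 in ABPS, against 377, 374 and 365 in AB0S, at 0.02 (95% interval -0.25 to 0.29).

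**Figure D3:**
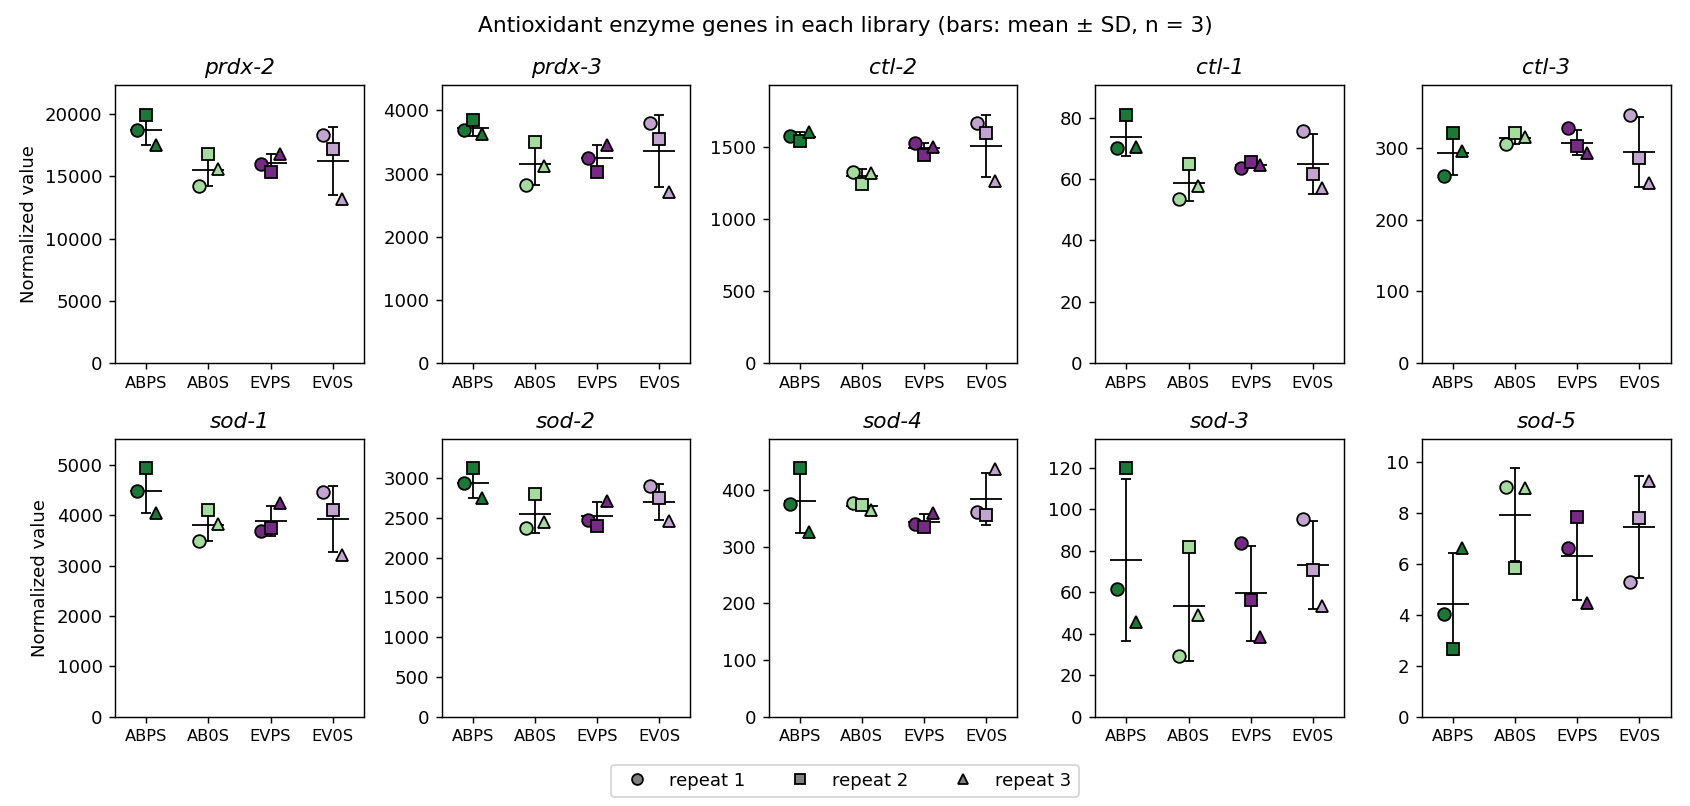
Normalized value of each gene in every library, by group (ABPS, AB0S, EVPS and EV0S from left to right) and repeat (marker), with the group mean and SD as bars (n = 3). For ctl-1, ctl-2, prdx-2 and prdx-3 every ABPS library lies above every AB0S library, while sod-3 spreads from 29.3 to 119.8.

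The calls in this comparison depended on which libraries set the spread. With EV0S repeat 3 left out, the fold changes of ABPS over AB0S stayed as they were, since that library is in neither group, but the SE of *prdx-2* became 0.0707 and 3 of the 10 genes passed, *ctl-2* (limma adjusted p 0.00895), *prdx-2* (0.0395) and *prdx-3* (0.0731), against 16.16% of all genes. In a fit of the ABPS and AB0S libraries alone, 5 of the 10 passed, *ctl-2*, *prdx-2*, *prdx-3*, *sod-2* and *sod-1* (limma adjusted p 0.0277 to 0.0688), against 12.7% of all genes. In both fits each of the genes that passed was higher in ABPS.

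Other tissue markers moved with these genes between the same groups. The 10 body wall muscle markers summed to between 171561 and 217225 in ABPS libraries, against 140329 to 148829 in AB0S libraries, and 9 of the 10 had a log2 fold change above 0. The 10 hypodermis markers summed to between 75279 and 86810 in ABPS, against 38441 to 48353 in AB0S, with 6 of the 10 above 0, and the 12 sperm markers to between 3095 and 8777, against 2386 to 2658, with 12 of 12 above 0. The 9 measured intestine markers overlapped between the groups, at 1213312 to 1417521 in ABPS and 1072381 to 1297068 in AB0S, with 7 of the 9 above 0. The sums mostly follow their most abundant genes. For the hypodermis this is *col-140* (46145 to 47676 in ABPS, against 17380 to 27254 in AB0S), and for the intestine the yolk protein genes. The 12 oocyte and embryo markers also overlapped, at 245429 to 265401 in ABPS and 250769 to 261904 in AB0S, with 2 of 12 above 0. Of the 10 neuron markers 3 were above 0, with a median log2 fold change of -0.22. No gene of the table was called by limma in this comparison. At an unadjusted p below 0.05 there were 6 of the 10 muscle, 5 of the 10 hypodermis, 11 of the 12 sperm and 3 of the 10 neuron markers. There were 0 of the intestine and 0 of the oocyte markers. The share of all genes at that p was 15.9%. The 3 neuron markers, *unc-13* (-0.34), *unc-64* (-0.26) and *rgef-1* (-0.50), had lower values in ABPS. Over the 12 libraries *ctl-2* followed the summed body wall muscle markers with r of 0.93 (rho 0.84, and 0.91 without the farthest 2), and *prdx-2* followed the yolk protein genes with r of 0.88 (rho 0.82, and 0.75). The part of tissue composition in the values of the 10 genes was not tested. The muscle sums include *unc-54* and the hypodermis sums *rol-6*. Whether reads from the strain's transgenes enter the values of *unc-54* and *rol-6* was not tested.

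At high Aβ levels, on EV bacteria, the peptide comparison of EVPS with EV0S gave no difference in these enzymes that passed the test. Of the 10 genes 0 passed limma's threshold (smallest adjusted p 0.552), against 7.33% of all genes, and 0 had an unadjusted p below 0.05, against 19.4% of all genes. The 10 had a median of -0.02 on the log2 scale, against -0.05 over all genes, and in 0 of the 10 did the groups separate, against 27.3% of all genes in either direction.

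*prdx-2* stood at 15977, 15322 and 16824 in EVPS, against 18342, 17212 and 13146 in EV0S. EVPS was lower in repeats 1 and 2 and higher in repeat 3, and the EVPS libraries lay inside the range of the EV0S libraries, so the log2 fold change was -0.00 (SE 0.113, 95% interval -0.26 to 0.25). The same order of the 3 pairs held for *prdx-3*, with 3251, 3027 and 3455 in EVPS against 3807, 3553 and 2709 in EV0S, and for *sod-1*, with 3689, 3751 and 4236 in EVPS against 4460, 4108 and 3204 in EV0S. *ctl-2* had 1526, 1449 and 1505 in EVPS, against 1667, 1600 and 1263 in EV0S, and *sod-2* had 2470, 2399 and 2720 in EVPS, against 2904, 2749 and 2458 in EV0S. In all 5 genes the repeat that differed was the one with EV0S repeat 3.

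*ctl-1* had 63.7, 65.6 and 64.7 in EVPS, against 75.8, 61.8 and 57.0 in EV0S, and *ctl-3* had 327, 302 and 293 in EVPS, against 346, 286 and 251 in EV0S. *sod-3*, the classic DAF-16 target, had 83.9, 56.3 and 38.3 in EVPS, against 95.2, 70.8 and 53.3 in EV0S. It was lower with the peptide in 3 of 3 repeats, by 0.18, 0.33 and 0.46 on the log2 scale, while its groups overlapped, and the fitted value was -0.32 (SE 0.381, 95% interval -1.17 to 0.53, limma adjusted p 0.723). *sod-4* was also lower in 3 of 3 repeats, at 340, 335 and 359 in EVPS, against 361, 356 and 438 in EV0S, with a fitted value of -0.15 (SE 0.120, limma adjusted p 0.552). *sod-5* had 6.64, 7.86 and 4.45 in EVPS, against 5.29, 7.81 and 9.27 in EV0S. Without EV0S repeat 3 the median log2 fold change of the 10 was -0.14, against -0.05 over all genes, and 0 of the 10 were above 0. Still, 0 passed limma's threshold, against 13.8% of all genes. Of the 10, 1, *ctl-2*, had an unadjusted p below 0.05. The share of all genes at that p was not computed in this fit.

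The difference of the 2 peptide effects was tested as the effect on EV bacteria minus the effect on Aβ RNAi bacteria, so a negative value means that the peptide effect was more positive on Aβ RNAi. It was negative for 8 of the 10 genes with a median of -0.28, against -0.03 over all genes. With all libraries 0 of the 10 passed limma's threshold (smallest adjusted p 0.238), against 2.98% of all genes, and 2 of the 10, *sod-2* (-0.30, SE 0.123) and *ctl-2* (-0.28, SE 0.125), had an unadjusted p below 0.05, against 18.1% of all genes. *prdx-2* stood at -0.28 (SE 0.160), *prdx-3* at -0.28 (SE 0.168), *sod-1* at -0.23 (SE 0.167) and *ctl-1* at -0.32 (SE 0.231). *sod-4* had -0.17 (SE 0.170) and *ctl-3* 0.18 (SE 0.173). *sod-3* had the most negative value, -0.82, with an interval of -2.02 to 0.38, and *sod-5* the most positive, 0.55, with an interval of -0.62 to 1.73.

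Without EV0S repeat 3 this difference passed limma's threshold in 5 of the 10 genes, against 25.7% of all genes. The values were -0.42 for *ctl-2* (limma adjusted p 0.00471), -0.42 for *prdx-2* (0.0250), -0.44 for *prdx-3* (0.0303), -0.36 for *sod-2* (0.0541) and -0.37 for *sod-1* (0.0735). The plot of the peptide effects gives both fits side by side. No source gives a reason to leave that library out, so the 2 fits are given as alternatives.

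**Figure D4:**
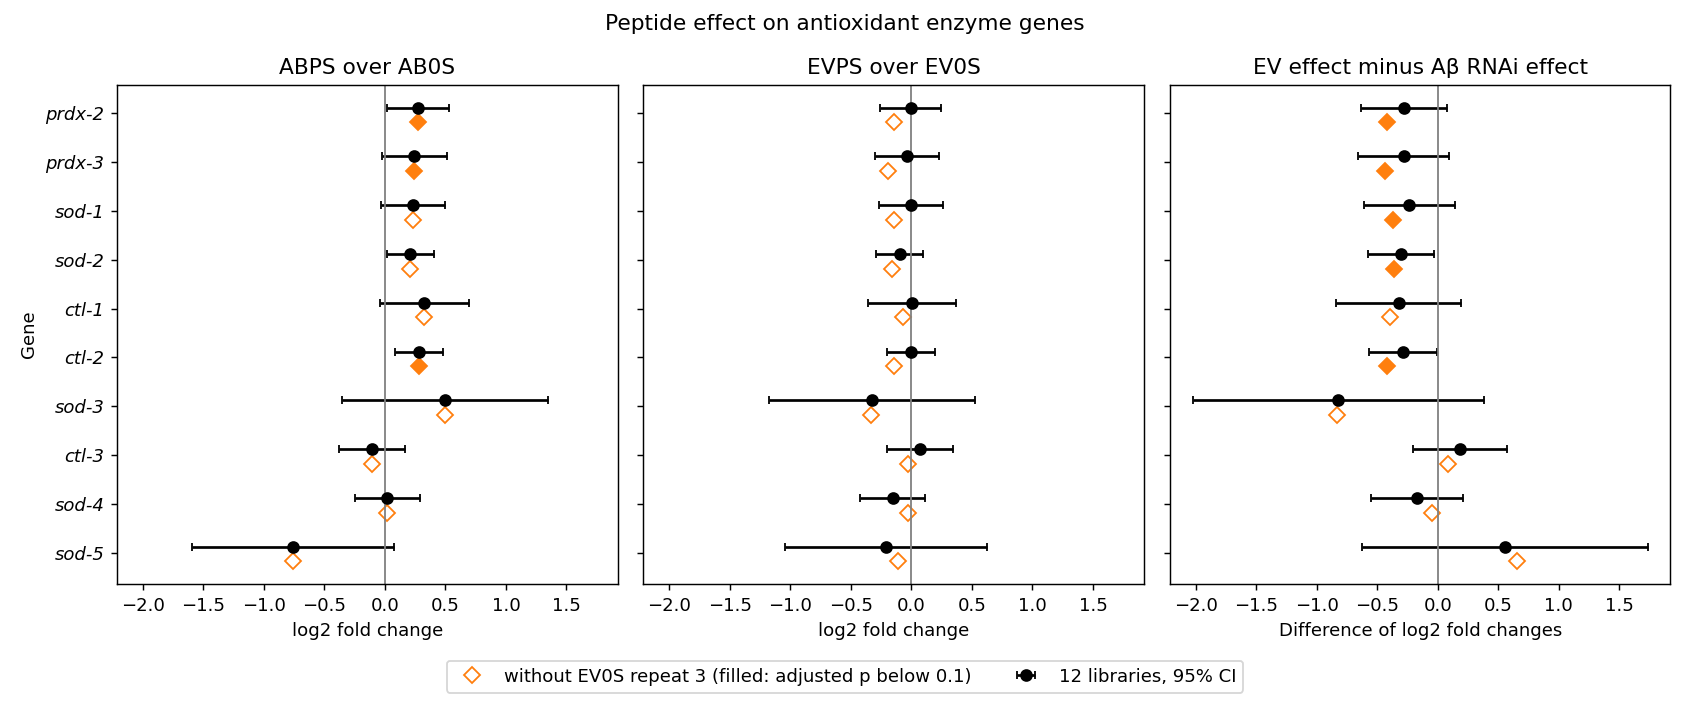
log2 fold change of each gene for ABPS over AB0S (left), EVPS over EV0S (middle) and the difference of these effects, EV minus Aβ RNAi (right), with 95% intervals from all 12 libraries in black. Orange diamonds leave out EV0S repeat 3, filled where the adjusted p is below 0.1: filled for 3 genes on the left, for 0 in the middle and for 5 on the right.

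Aβ RNAi without the peptide was assessed by setting AB0S against EV0S, which were fed different RNAi bacteria. An effect of the Aβ load and one of the RNAi itself cannot be told apart here. Of the 10 genes 0 passed limma's threshold (smallest adjusted p 0.200), against 11.1% of all genes, and 1, *ctl-2*, had an unadjusted p below 0.05, against 22.5% of all genes. The 10 had a median of -0.07 on the log2 scale, against 0.03 over all genes, and in 0 of the 10 did the groups separate, against 27% of all genes in either direction. *ctl-2*, at the library values given above, had a log2 fold change of -0.21 (SE 0.0886, 95% interval -0.41 to -0.01), lower in AB0S in repeats 1 and 2 and higher in repeat 3. For *prdx-2* it was -0.05 (95% interval -0.31 to 0.20), for *sod-1* -0.03 (-0.30 to 0.23), for *sod-2* -0.09 (-0.28 to 0.11) and for *sod-3* -0.53 (-1.38 to 0.32). The remaining 5 genes had -0.13 (*ctl-1*), -0.08 (*prdx-3*), -0.04 (*sod-4*), 0.09 (*sod-5*) and 0.11 (*ctl-3*).

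Leaving out EV0S repeat 3 changed this comparison too, since 1 of its groups then had 2 libraries. *ctl-2* fell by 0.34 on the log2 scale (limma adjusted p 0.00136) and *prdx-3* by 0.24 (limma adjusted p 0.0753), so that 2 of the 10 genes passed, against 34.2% of all genes.

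Aβ RNAi in peptide-treated worms was assessed by setting ABPS against EVPS. In this comparison 0 of the 10 genes passed limma's threshold (smallest adjusted p 0.277), against 0.272% of all genes, and 1, *sod-2*, had an unadjusted p below 0.05, against 15.8% of all genes. The 10 had a median of 0.19 on the log2 scale, against 0.00 over all genes, with 8 of the 10 above 0. In 5 of the 10, *sod-2*, *ctl-1*, *ctl-2*, *prdx-2* and *prdx-3*, every ABPS library was above every EVPS library, against 16.24% of all genes, and in 0 every ABPS library was below, against 15.1%. The fold changes of these 5 were between 0.08 for *ctl-2* (fold 1.05, SE 0.0886) and 0.22 for *prdx-2* (fold 1.17, SE 0.113, limma adjusted p 0.359). *sod-1* had 0.20 (SE 0.118), with ABPS higher in 2 of 3 repeats, and *sod-5* -0.46 (SE 0.373). *sod-3* had 0.29 (SE 0.381), *sod-4* 0.13 (SE 0.120) and *ctl-3* -0.08 (SE 0.122). Without EV0S repeat 3, which is in neither group, *prdx-2* passed at the same fold change (limma adjusted p 0.0788), 1 of the 10 against 15.3% of all genes. The ABPS libraries enter both this comparison and that with AB0S, so the higher values of ABPS in both rest on the same 3 libraries.

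Genes that work beside these enzymes were examined as lists that were chosen with results of these data known. Of 10 thioredoxin and peroxiredoxin partner genes, 0 were called by limma in ABPS against AB0S, with 9 above 0 and a median of 0.08. At an unadjusted p below 0.05 there were 2, against 15.9% of all genes. In EVPS against EV0S 0 were called by limma, with a median of -0.04. There 2 had an unadjusted p below 0.05, against 19.4% of all genes. The 1 call among the 10 was *msra-1*, a methionine sulfoxide reductase, in AB0S against EV0S, where 8.26% of all genes were called lower. Its log2 fold change was -0.87 (SE 0.261, limma adjusted p 0.0847), and -1.21 without EV0S repeat 3 (limma adjusted p 0.00173). Its values were 612, 1164 and 818 in AB0S, against 1998, 1933 and 924 in EV0S, so the groups overlapped at EV0S repeat 3. Of 16 glutathione peroxidase and glutathione genes 0 were called in any of the 5 comparisons. In each, 0 to 2 had an unadjusted p below 0.05, against 15.8% to 22.5% of all genes. Their median in ABPS against AB0S was 0.18, with 13 above 0. Without EV0S repeat 3, 4 of the 16 were called higher in ABPS than in AB0S, against 2010 of 19089 genes called higher. In that fit 5 of the 16 were called lower in AB0S than in EV0S, against 3625 of 19089 genes called lower. For the difference of the peptide effects 7 of the 16 were called negative, against 2949 of 19089 genes called negative. Of 14 genes of peroxisome import and reactive oxygen production, *prx-14*, which encodes a peroxin of the import machinery, rose in EVPS against EV0S (0.26, limma adjusted p 0.0593), 1 of 14 where 5.51% of all genes rose, and passed in the difference of the peptide effects (0.36, limma adjusted p 0.0864), where 2.37% of all genes were called higher. *doxa-1*, a maturation factor of the dual oxidase, fell by 0.39 in AB0S against EV0S (limma adjusted p 0.0808), 1 of 14 where 8.26% of all genes fell. Both counts in the direct comparisons are near the background. When EV0S repeat 3 was left out, the limma adjusted p was 0.0524 and 0.0215 for *prx-14* and 0.0504 for *doxa-1*. Over 24 alternative settings *prx-14* was called in 15 in EVPS against EV0S, and in AB0S against EV0S *doxa-1* was called in 12 and *msra-1* in 10.

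Some upstream regulators passed the test at high Aβ levels, but only in part of the settings run. Of 17 genes of insulin/IGF signaling and of the stress transcription factors, 4 rose in EVPS against EV0S, where 5.51% of all genes rose and 1.82% fell, and their median was 0.16. *hsf-1*, the heat shock transcription factor, had 4031, 4165 and 3833 in EVPS, against 3148, 3243 and 3111 in EV0S, without overlap and with a log2 fold change of 0.34 (limma adjusted p 0.0511). The kinase gene *akt-1* rose by 0.28 (limma adjusted p 0.0511) and the insulin receptor gene *daf-2* by 0.33 (limma adjusted p 0.0764). These calls held without EV0S repeat 3 (*hsf-1* 0.0215, *akt-1* 0.0243 and *daf-2* 0.0746 by limma adjusted p), where the calls over all genes were 1262 higher and 1371 lower and 2 genes of the list were called lower beside 4 higher. They did not hold where no gene of the table was called in this comparison, which was so in 7 of 24 alternative settings, namely without EV0S repeat 1 or 2, EVPS repeat 1 or 2 or ABPS repeat 1, without the eBayes trend, and with only the groups compared. *daf-16* itself had 0.21 (limma adjusted p 0.125) and *skn-1* 0.22 (limma adjusted p 0.116). In AB0S against EV0S, where 2.82% of all genes rose and 8.26% fell, *hsf-1* (0.25) and the kinase genes *pdk-1* (0.21) and *nsy-1* (0.18) rose (limma adjusted p 0.0497 to 0.0892), with a median of 0.15 over the list. In ABPS against AB0S the list had 0 calls by limma and a median of -0.04, with 2 at an unadjusted p below 0.05, against 15.9% of all genes. In the difference of the peptide effects *hsf-1* (0.45) and *daf-2* (0.53) were among the genes called higher, where 2.37% of all genes were. The calls in AB0S against EV0S and in the difference were also made without EV0S repeat 3 (limma adjusted p 0.0194 to 0.0426 for *hsf-1*, *pdk-1* and *nsy-1*, and 0.00788 and 0.0184 for *hsf-1* and *daf-2*). In the settings run, *hsf-1* was called in 16 of 24 for EVPS against EV0S, 17 of 24 for AB0S against EV0S and 12 of 23 for the difference. For EVPS against EV0S *akt-1* was called in 15 of 24 and *daf-2* in 12 of 24, so *daf-2* was also lost in settings that called other genes. For AB0S against EV0S *pdk-1* was called in 15 of 24 and *nsy-1* in 9 of 24, and *daf-2* in 12 of 23 for the difference.

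Oocyte and early embryo markers rose in the same comparison as these regulators. The 12 markers summed to between 278969 and 304762 in EVPS libraries, against 207101 to 260144 in EV0S libraries, without overlap. All 12 had a log2 fold change above 0 with a median of 0.33, and 8 of them were called higher, against 5.51% of all genes. Among them were *oma-1* (0.36), *spn-4* (0.42) and *egg-1* (0.29), which is the size seen for *hsf-1*, *akt-1* and *daf-2*. Without EV0S repeat 3 *oma-1*, *spn-4* and *egg-1* had 0.29, 0.41 and 0.23 (limma adjusted p 0.0193, 0.0113 and 0.0349). In the alternative settings *oma-1* and *spn-4* were each called in 16 of 24 and *egg-1* in 14 of 24. In the difference of the peptide effects 5 of the 12 were called higher, against 2.37% of all genes. In AB0S against EV0S 1 of the 12 was called higher, against 2.82% of all genes. In AB0S against EV0S 8.26% of all genes were called lower. So were 7 of 12 sperm markers (called in 10 to 12 of 24 alternative settings) and 3 of 10 hypodermis markers. Of 10 body wall muscle markers 1 was called lower, *unc-54* (-0.75, limma adjusted p 0.0829), which is near that share. Among the hypodermis calls was *rol-6* (-1.51, limma adjusted p 0.00147). Without EV0S repeat 3 the limma adjusted p was 5.93e-05 for *unc-54* and 5.58e-08 for *rol-6*. Whether reads from the strain's transgenes enter these values was not tested. The part of tissue composition in the values of the regulators and of the other listed genes was not tested.

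Of 19 further genes known to be activated by DAF-16, 15 were in the table, and they did not move as 1 group. In AB0S against EV0S the small heat shock protein genes *hsp-16.41* (-1.96), *hsp-16.2* (-1.13) and *hsp-16.11* (-1.30) fell (limma adjusted p 0.0107 to 0.0168), while *dod-3* rose (0.97, limma adjusted p 0.0167), and the median of the 15 was -0.15. Of all genes 8.26% fell and 2.82% rose in that comparison. In EVPS against EV0S *dod-3* rose by 0.64 (limma adjusted p 0.0593), whereas *icl-1*, a glyoxylate cycle enzyme, fell by 0.41 (limma adjusted p 0.0684) and *hsp-16.41* fell by 0.86 (limma adjusted p 0.0738), with a median of -0.01. Of all genes 5.51% rose and 1.82% fell there. In ABPS against EVPS *hsp-16.2* fell by 0.77 (limma adjusted p 0.0987), where 0.0576% of all genes fell. In ABPS against AB0S 0 of the 15 were called by limma, and 3 had an unadjusted p below 0.05, against 15.9% of all genes. In the difference of the peptide effects *dod-3* passed (1.33, limma adjusted p 0.0707), where 2.37% of all genes were called higher. Each of these calls was made without EV0S repeat 3 too, with a limma adjusted p of 0.000277 to 0.00231 in AB0S against EV0S, 0.0403 to 0.0747 in EVPS against EV0S, 0.0193 in ABPS against EVPS and 0.00402 in the difference. The calls of *hsp-16.41* and *dod-3* in AB0S against EV0S held in 24 and 22 of 24 alternative settings, those in EVPS against EV0S in 12 to 15 of 24, and that of *hsp-16.2* in ABPS against EVPS in 11 of 24. Some *hsp-16* genes are near-identical copies, and the listed *hsp-16.1*, *hsp-16.48* and *hsp-16.49* were not in the table. Reads could be split between copies, so the values of the *hsp-16* genes are uncertain. *sod-3*, which shares this regulator, was not called in any of the 5 comparisons (limma adjusted p 0.450 to 0.726).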

How the data were processed

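mRNA of whole CL2006 worms (KAPA stranded kit, single-end reads) was sequenced in 12 libraries of 4 groups and 3 repeats, with groups and repeat numbers taken from the sample titles. The authors cleaned the reads (fastx_toolkit, cutadapt 2.10), mapped them to WBcel235 by TopHat2 2.1.1, obtained counts per gene by HTSeq 2.01, divided the counts by DESeq2 1.36.0 size factors and corrected the normalized counts for the 3 repeats (tool versions as in the submitters' processing notes, correction method not given in the sources used here). The deposited values are on a linear scale, are not whole counts, and 307 of 229068 are below 0 (lowest -0.636), so no count test was used and no counting interval can be given. The effect of that correction on the values was not tested. No further columns of values were left unused (0).

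Negative values were replaced by 0. limma 3.58.1 (R 4.3.3) was run on log2(value + 1) of all genes with an eBayes trend, using every library and terms for group and repeat. The p-values were adjusted over all genes. The block was kept because the values had already been corrected for the repeats. Same-numbered libraries did not deviate together (mean r -0.18 over 18 pairs, 0 of them above 0.1, against 0.09 over 36 pairs with different numbers), in values already corrected for the repeats, and the part of that correction in this was not tested. The p-values rest on the spread left after the group and repeat terms, pooled over all 12 libraries and adjusted by the eBayes step. They do not measure the spread of the compared groups alone. The study describes the 3 repeats as independent. An exact permutation test of 3 libraries against 3 cannot give a p below 0.1, so none is reported. Groups were called separate where every library of 1 lay above every library of the other. Positions, exon lengths and overlaps come from Ensembl release 115 of WBcel235, and the authors used another release of the same assembly. Tables and plots were made in Python 3.11.15 (matplotlib 3.10.9, numpy 2.4.6, pandas 2.3.3, scipy 1.17.1).

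By rule, all 10 genes are named in every comparison, together with at most 3 called genes per list and comparison by smallest p, and the 3 genes with the highest r to the member with the smallest p. The members, lists and alternatives were chosen with earlier results of these data known. Outside the rule, *daf-16*, *skn-1* and *hsp-16.11* were chosen after seeing values. Also outside it are *daf-2* in EVPS against EV0S and the markers *oma-1*, *egg-1*, *unc-13*, *unc-64* and *rgef-1*. The oocyte markers *pos-1* and *mex-3* had a smaller p than *oma-1* and *egg-1* in EVPS against EV0S and are not named there. Alternative settings were a pseudocount of 0.1 or 5, a minimum mean of 1 or 10, no replicate block, only the groups compared, TMM rescaling (trims of 30% and 5%), a robust or trend-free eBayes step, quantile normalization, an adjusted p below 0.05, values below 0 kept, and each library left out in turn. No sequence is shown, since none of these genes' sequences were used here. The result of 1 gene among the upstream regulators is not reported here, although the list's counts and median include it.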

Additional observations from a re-analysis of the deposited data

How the results depend on the processing

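The counts of called enzyme genes moved in 2 settings. Leaving out each library in turn gave counts of 0 to 3 for ABPS against AB0S, 0 to 2 for AB0S against EV0S, 0 to 1 for ABPS against EVPS, 0 to 0 for EVPS against EV0S and 0 to 5 for the difference of the peptide effects, and every count above 0 came from leaving out EV0S repeat 3. The fit of only the groups compared gave 5 for ABPS against AB0S. Without the replicate block the count was 0 in all 5 comparisons, as it was under each of the other settings. Counts over all genes moved more: over the alternative settings they ran from 0 to 3085 for ABPS against AB0S (0 with all libraries), 10 to 6524 for AB0S against EV0S (2114), 0 to 2923 for ABPS against EVPS (52), 0 to 2633 for EVPS against EV0S (1399) and 0 to 4908 for the difference (569), the highest each time without EV0S repeat 3. In EVPS against EV0S 7 of 24 settings gave 0, 5 of them by leaving out 1 library (EV0S repeat 1 or 2, EVPS repeat 1 or 2, or ABPS repeat 1). In AB0S against EV0S the count was 15 without EV0S repeat 1 and 10 without EV0S repeat 2. The difference had 0 in 11 of 23 settings. In addition, TMM rescaling gave 1263 higher and 1719 lower genes in AB0S against EV0S, where the unscaled values gave 538 and 1576. Of 585 single fold changes under settings that keep all libraries 7 changed sign, each near 0: quantile normalization gave 0.072 for *ctl-1*, 0.048 for *prdx-2* and 0.019 for *sod-4* in AB0S against EV0S and 0.014 for *prdx-2* in EVPS against EV0S, and TMM rescaling gave 0.0015 for *ctl-2*, 0.0037 for *prdx-2* and 0.0066 for *sod-1* in EVPS against EV0S. Leaving out 1 library changed the sign in 34 of 600 values. In EVPS against EV0S these ran from -0.074 to 0.16 for *ctl-1*, -0.14 to 0.064 for *ctl-2*, -0.028 to 0.21 for *ctl-3*, -0.15 to 0.11 for *prdx-2*, -0.19 to 0.088 for *prdx-3*, -0.14 to 0.13 for *sod-1* and -0.49 to 0.16 for *sod-5*. In AB0S against EV0S they ran from -0.21 to 0.018 for *ctl-1*, -0.20 to 0.063 for *prdx-2*, -0.24 to 0.042 for *prdx-3*, -0.17 to 0.099 for *sod-1*, -0.13 to 0.083 for *sod-4* and -0.15 to 0.25 for *sod-5*. In ABPS against AB0S they ran from -0.18 to 0.021 for *ctl-3* and -0.11 to 0.16 for *sod-4*, and in ABPS against EVPS from -0.15 to 0.053 for *ctl-3* and -0.00026 to 0.27 for *sod-4*. The signs of *prdx-2*, *prdx-3*, *sod-1*, *sod-2*, *ctl-1* and *ctl-2* in ABPS against AB0S and in the difference of the peptide effects held in every setting run. The difference was not fitted on only the groups compared, since it uses all of them, and *sod-5* has no value under a mean of at least 10. The depth of the libraries is unknown, and the values of *sod-5* were all under 10. Why EV0S repeat 3 differs was not tested.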
